A study of Mus musculus with 8 samples.

Results

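The genes described here are 9 genes used as markers of the primitive endoderm: Gata4, Gata6, Sox17, Sox7, Foxa2, Pdgfra, Dab2, Sparc and Cubn. They were taken by symbol from the deposited count tables, which hold 55418 genes, and all 9 matched a single row. The measurements are RNA-seq read counts in 8 libraries of E14 mouse embryonic stem cells (ESCs), with 2 libraries each for control, Hira_KD, Ubn1_KD and Ubn2_KD, where KD stands for knockdown by a short hairpin RNA (shRNA). All cells share strain 12910la in the labels, with a wild type genotype for control and a knockdown of the named gene for the other groups, and were grown on gelatin in 15% serum with 10 ng/ml LIF. All were transfected with 1000 ng of the pSuper puro plasmid, treated with 1 µg/ml puromycin from 24 h after transfection and kept under selection for 3 days. The depleted groups carried shRNAs against Hira, Ubn1 or Ubn2. For the control, the labels name no shRNA, whereas the study's methods describe one against luciferase. Transfection was transient, so each depletion is a partial loss of transcript in a mixed, selected population and not a clonal mutant. HIRA is the chaperone complex that deposits histone H3.3 outside DNA replication, and UBN1 and UBN2 are its alternative H3.3-binding subunits. The labels do not say whether the 2 libraries of a group came from separate cultures, so the p-values measure the spread between these libraries, which may be technical.

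The primitive endoderm is the extraembryonic layer that segregates from the epiblast inside the blastocyst and later forms the parietal and visceral endoderm. FGF4 from epiblast precursors signals through ERK to raise GATA6, which opposes NANOG, and PDGFRA, SOX17, GATA4 and SOX7 follow in the cells that commit. ESCs correspond to the epiblast and keep this programme low, although ESCs in serum and LIF are known to contain a few cells that express it. In bulk RNA, fewer cells of a type and less RNA per cell cannot be told apart, and this holds for every value below.

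The control libraries held all members except Sparc at a low level. Per kilobase of exon, the mean control level in CPM (reads of a gene scaled to a common library size) was 37.4 for Sparc, which placed it above 94.2% of the 28358 genes with counts and a single annotated length. The next levels per kilobase were 0.913 for Gata4, 0.525 for Gata6, 0.459 for Pdgfra and 0.417 for Dab2, and the library values of the last 3 overlapped. Sox7 at 0.176 and Sox17 at 0.139 also overlapped, followed by Cubn at 0.0872 and Foxa2 at 0.0308, which stood above only 10.8% of genes. On the same scale the ESC factor Pou5f1 reached 539 and Nanog 199.9, so the libraries carried the defining markers of ESCs. The low levels mean that the evidence for most members rests on at most 142 reads per library, whereas Sparc was counted 2837 to 5903 times per library.

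Promoter sequence is shown for 3 members whose levels are central below. Pdgfra is the surface receptor that was lower after Ubn1 depletion, Sparc the abundant matrix gene, and Dab2 an endocytic adaptor with a GATA motif in the upstream window shown. The windows are the 250 bases before the annotated start in RefSeq on GRCm38.p6, written 5′ to 3′ on the gene's strand, at chr5:75152001-75152250 for Pdgfra on the + strand, chr11:55420081-55420330 for Sparc on the - strand and chr15:6299539-6299788 for Dab2 on the + strand. Capitals mark a GATA motif.
Pdgfra: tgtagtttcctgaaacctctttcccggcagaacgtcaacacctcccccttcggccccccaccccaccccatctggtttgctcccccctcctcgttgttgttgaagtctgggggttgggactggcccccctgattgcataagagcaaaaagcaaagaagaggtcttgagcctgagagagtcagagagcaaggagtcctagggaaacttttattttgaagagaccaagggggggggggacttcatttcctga
Sparc: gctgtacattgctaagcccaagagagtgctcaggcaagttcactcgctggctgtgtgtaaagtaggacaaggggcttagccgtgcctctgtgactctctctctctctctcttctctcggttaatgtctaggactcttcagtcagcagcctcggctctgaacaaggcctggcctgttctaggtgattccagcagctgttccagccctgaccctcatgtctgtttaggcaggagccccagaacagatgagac
Dab2: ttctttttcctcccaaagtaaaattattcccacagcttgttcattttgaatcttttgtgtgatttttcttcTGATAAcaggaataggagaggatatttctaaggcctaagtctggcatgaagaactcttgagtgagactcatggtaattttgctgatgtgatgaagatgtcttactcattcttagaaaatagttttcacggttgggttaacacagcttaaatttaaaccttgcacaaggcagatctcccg
RefSeq promoter entries were matched for 5 of the 9 members: Cubn, Dab2, Foxa2, Pdgfra and Sparc. Both strands were searched for 5 motifs. The GATA motif was spelled AGATAA or TGATAA or AGATAG or TGATAG. The SOX motif was ACAAT, the forkhead motif was TGTTTAC or TGTTTGC, the GC box used by SP1 was spelled GGGCGG, and the TATA box of core promoters was spelled TATAAA. No match of one motif overlapped a match of another in the members' windows. The GATA letters were present in the Dab2 window shown, with 1 match that starts 179 bases before the annotated start, and in a Foxa2 window. Dab2 has another window, at chr15:6386498-6386747, which held no match to any of the 5 motifs. The Pdgfra, Sparc and Cubn windows held no match to any of the 5 motifs, as did 24.8% of all 32851 promoter windows of this length. Among all windows, 26.5% held the GATA letters, 27.7% the SOX letters, 32.7% a GC box, 12.4% a TATA box and 7.30% a forkhead match. A match is a description of these letters and not evidence of binding.

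Total counts on genes ranged from 19710040 to 32706053 per library, with TMM factors (trimmed mean of M values, a correction of library size for composition) from 0.970 to 1.06. Hira transcripts were 89.4 and 97.6 CPM in control and 10.0 and 10.4 CPM in the Hira-depleted libraries. Ubn1 went from 53.0 and 44.1 CPM to 23.8 and 23.8 CPM in its own depletion, and Ubn2 from 50.1 and 51.7 CPM to 30.1 and 24.6 CPM. Each targeted gene was therefore lowest in the libraries labelled for it, and the remaining fraction was larger for Ubn1 and Ubn2 than for Hira. In the Ubn2-depleted libraries, markers of heart muscle, blood and fibroblasts were also present, with values given below.

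**Figure D1:**
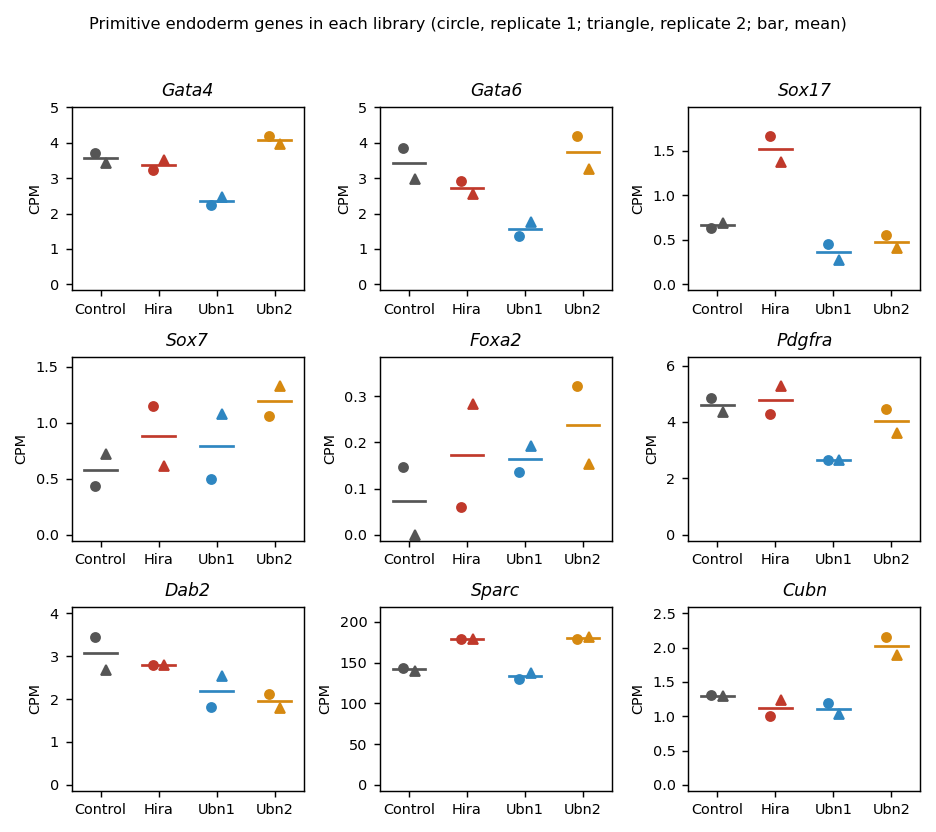
Level of each primitive endoderm gene in each library, in CPM on an axis that includes 0, for control and for Hira, Ubn1 and Ubn2 depletion (circle, replicate 1; triangle, replicate 2; bar, mean of the 2 libraries). Gata4, Gata6 and Pdgfra sit lowest in the 2 Ubn1-depleted libraries, Sox17 sits highest in the 2 Hira-depleted libraries, and Sparc sits near 179 CPM after Hira or Ubn2 depletion against 140.1 to 143 CPM in control.

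The first comparisons asked how losing each HIRA complex member changed these genes relative to control. A gene was called when edgeR's quasi-likelihood test gave a Benjamini-Hochberg adjusted p under 0.05 over all genes tested together with a fold change above 1.5. After Hira depletion, 1 of 8 tested members was called higher (Sox17) and 0 were called lower, against a background of 10.8% of all tested genes called higher and 5.40% called lower. After Ubn1 depletion, 2 of 8 were called lower (Gata6 and Pdgfra) and 0 higher, against a background of 1.56% lower and 1.53% higher. After Ubn2 depletion, 0 of 8 were called in either direction, against a background of 9.59% higher and 8.75% lower. In the Ubn2 comparison 3 members, Sox7, Dab2 and Sparc, had an unadjusted p under 0.05 in edgeR, and DESeq2 called 0 members. Foxa2 did not pass the filter on low counts in any comparison, so every count is out of 8 members, or 7 where a second member failed the filter.

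The median log2 fold change of the tested members was -0.03, -0.535 and 0.171 after loss of Hira, Ubn1 and Ubn2, while the median of all tested genes was 0.011, -0.002 and -0.004. After Ubn1 depletion 7 of the 8 tested members had a log2 fold change below 0, and 2 of these passed the test. The 3 comparisons share the same control libraries. DESeq2, a second count model, called 0 members against control in all 3 comparisons, and gave no adjusted p for 6 members after Ubn1 depletion, Gata6 among them. Groups of 2 libraries that do not overlap are common here, since both Hira-depleted libraries lay above both controls in 6779 of 19035 tested genes and below them in 5976. For Ubn1 these numbers were 4871 and 4552 of 18373, and for Ubn2 6322 and 6356 of 18219. How often a group lies apart from all other libraries was not counted over all genes. Where that is stated for a member, it only describes the values.

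**Figure D2:**
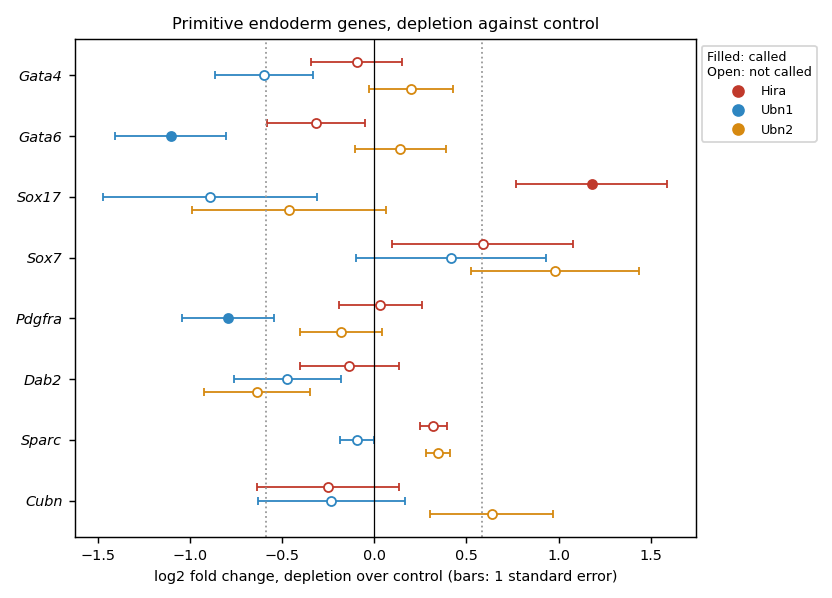
Fitted log2 fold change of each tested member after Hira, Ubn1 or Ubn2 depletion over control, with bars of 1 standard error, filled points for called genes and dotted lines at a fold of 1.5 in either direction. The filled points are: Sox17 after Hira depletion at 1.18, and Gata6 at -1.10 and Pdgfra at -0.79 after Ubn1 depletion.

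Gata6 and Gata4 encode zinc finger transcription factors of the endoderm, with GATA6 acting upstream at the choice between epiblast and primitive endoderm. Gata6 (chromosome 18, 11052064 to 11085635 on GRCm38) was 3.85 and 2.99 CPM in control, 2.91 and 2.56 CPM after Hira depletion, 1.37 and 1.77 CPM after Ubn1 depletion, and 4.18 and 3.26 CPM after Ubn2 depletion. The Ubn1-depleted libraries were lower than all others, with no overlap. Gata6 fell to 0.465 times control after Ubn1 depletion, with a log2 fold change of -1.10 (SE 0.301, edgeR adjusted p = 0.0200). The adjusted p was 0.225 without control library 1 and 0.0543 without Ubn1-depleted library 1, so that the call rests on those libraries, and DESeq2 gave an unadjusted p of 0.00866 with no adjusted value. After Hira depletion the log2 fold change was -0.32 (adjusted p = 0.384) and it was 0.14 under Ubn2 loss (adjusted p = 0.683), neither past the test. A noncoding gene on the opposite strand, 1010001N08Rik, overlaps Gata6 exons and held 0 to 8 counts per library.

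Gata4 (chromosome 14, 63198922 to 63271692) followed the same order of groups. It was 3.70 and 3.43 CPM in control, 3.24 and 3.51 CPM after Hira depletion, 2.23 and 2.46 CPM after Ubn1 depletion, and 4.18 and 3.98 CPM after Ubn2 depletion. The Ubn1-depleted libraries again lay below all others, while control and Hira-depleted libraries overlapped. The log2 fold change after Ubn1 depletion was -0.60 (SE 0.267), which did not pass the test (edgeR adjusted p = 0.178). Across the 8 libraries the log2 CPM of Gata4 and Gata6 had a Pearson r of 0.958, given as a description because the points come as pairs within 4 groups. It was the highest among pairs of members other than Foxa2, which ran down to -0.475 for Dab2 and Cubn. Gata6 and Sox17 had an r of 0.294.

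Sox17 and Sox7 encode related SOX factors of the endoderm, which are also used by endothelial cells. Sox17 (chromosome 1, 4490931 to 4497354) was 0.633 and 0.692 CPM in control, 1.67 and 1.38 CPM after Hira depletion, 0.456 and 0.269 CPM after Ubn1 depletion, and 0.552 and 0.408 CPM after Ubn2 depletion. The 2 Hira-depleted libraries stood above the other 6, and the Ubn1 and Ubn2 libraries overlapped each other below control. Sox17 rose 2.27-fold after Hira depletion, with a log2 fold change of 1.18 (SE 0.410, edgeR adjusted p = 0.0296). These values rest on 13 and 22 reads in control and 55 and 29 reads after Hira depletion. The adjusted p became 0.119 without control library 1, 0.113 without control library 2, 0.189 without Hira-depleted library 1 and 0.156 in DESeq2, so the call did not hold in those fits while the log2 fold change stayed between 1.02 and 1.30.

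Sox17 after Ubn1 depletion had a log2 fold change of -0.89 (SE 0.579, adjusted p = 0.389) and after Ubn2 depletion of -0.46 (SE 0.528, adjusted p = 0.519), neither past the test at 7 to 12 reads per depleted library. Because Sox17 is also an endothelial gene, the endothelial markers are given beside it. Their summed level was 131 and 128 CPM in the Hira-depleted libraries and 130.4 and 125 CPM in control, while 2 of 5 tested markers, the receptors Tek and Kdr, were called higher after Hira depletion, and the endothelial cadherin Cdh5 had 0.0908 and 0.285 CPM there against 0.146 and 0.0943 CPM in control. Among all genes tested in that comparison, 10.8% were called higher. The sum covers opposite directions, since the adhesion gene Pecam1, its largest member, averaged 79.9 CPM after Hira depletion against 109.9 CPM in control (log2 fold change -0.47, edgeR adjusted p = 7.84e-05, under a fold of 1.5), while Tek averaged 42.6 against 13.5 CPM. Their part in the Sox17 result was not tested.

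Sox7 (chromosome 14, 63943673 to 63950732) differed widely between the 2 libraries of a group. It was 0.438 and 0.723 CPM in control, 1.15 and 0.617 CPM after Hira depletion, 0.502 and 1.08 CPM after Ubn1 depletion, and 1.06 and 1.33 CPM after Ubn2 depletion. The 2 Ubn2-depleted libraries lay above control, with a log2 fold change of 0.98 (SE 0.456) that missed the threshold (edgeR adjusted p = 0.0948), while Hira and Ubn1 libraries overlapped control. Foxa2 (chromosome 2, 148042877 to 148046969), a forkhead factor of visceral and definitive endoderm, had 3 and 0 counts in control, 2 and 6 in Hira-depleted, 3 and 5 in Ubn1-depleted and 7 and 3 in Ubn2-depleted libraries. The summed control count of 3 has a 95% exact Poisson interval of 0.60 to 8.80, and the Ubn2 sum of 10 one of 4.80 to 18.4, for counting error only. A difference in Foxa2 was not detectable at this depth.

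Pdgfra (chromosome 5, 75152292 to 75198215) encodes the receptor for PDGF ligands that marks committed primitive endoderm. It was 4.87 and 4.34 CPM in control, 4.30 and 5.27 CPM after Hira depletion, 2.65 and 2.65 CPM after Ubn1 depletion, and 4.46 and 3.62 CPM after Ubn2 depletion. The Ubn1-depleted libraries lay below all others and nearly equalled each other, whereas control, Hira and Ubn2 libraries overlapped. Pdgfra fell to 0.577 times control after Ubn1 depletion, with a log2 fold change of -0.79 (SE 0.248, edgeR adjusted p = 0.0433). Leaving out any of the 4 libraries ended this call, with adjusted p from 0.0600 to 0.274, and DESeq2 gave 0.159. The microRNA gene Mir7025 lies in Pdgfra on the same strand and held 0 to 9 counts per library, and 2 genes on the opposite strand held 0 or 1.

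Dab2 and Cubn belong to the endocytic machinery of the visceral endoderm, where the adaptor DAB2 couples the scavenger receptor cubilin, with its partners LRP2 and AMN, to clathrin-coated pits. Dab2 (chromosome 15, 6299788 to 6440712) was 3.46 and 2.67 CPM in control, 2.79 and 2.80 CPM after Hira depletion, 1.82 and 2.54 CPM after Ubn1 depletion, and 2.12 and 1.78 CPM after Ubn2 depletion. Ubn1 and Ubn2 libraries lay below control without overlap, but the log2 fold changes of -0.47 (adjusted p = 0.358) and -0.64 (adjusted p = 0.0843) did not pass edgeR's test. The GATA letters in a promoter window of Dab2 were shown above. Cubn (chromosome 2, 13276338 to 13491813) went the other way after Ubn2 depletion, with 2.16 and 1.89 CPM against 1.31 and 1.29 CPM in control. Its log2 fold change was 0.64 (SE 0.332) and did not pass the test (adjusted p = 0.136). After Hira depletion Cubn was 1.00 and 1.23 CPM and after Ubn1 depletion 1.19 and 1.04 CPM, with log2 fold changes of -0.25 and -0.23. Gm13270, on the strand opposite Cubn, held 3 to 14 counts per library.

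Sparc (chromosome 11, 55394500 to 55423183) encodes osteonectin, a secreted collagen-binding glycoprotein that parietal endoderm makes in quantity and that fibroblasts and other cells also secrete. It was 143 and 140.1 CPM in control, 179 and 179 CPM after Hira depletion, 129 and 137 CPM after Ubn1 depletion, and 179 and 182 CPM after Ubn2 depletion. The Hira and Ubn2 libraries overlapped each other and stood above control and Ubn1 libraries. The log2 fold change was 0.32 after Hira depletion (SE 0.073, edgeR adjusted p = 0.00189) and 0.35 after Ubn2 depletion (SE 0.066, edgeR adjusted p = 0.000269), a fold of 1.25 and 1.27 that stayed under 1.5 and was therefore not called. After Ubn1 depletion it was -0.09 (SE 0.091, adjusted p = 0.605). Sparc contributed 88.6% to 92.6% of the members' summed CPM in each library, so a sum over the members follows Sparc. Without Sparc the other 8 members summed to 18.4 and 16.1 CPM in control, 17.1 and 17.6 CPM after Hira depletion, 10.4 and 12.0 CPM after Ubn1 depletion, and 19.0 and 16.4 CPM after Ubn2 depletion.

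The genes whose log2 CPM followed Sparc most closely over the 8 libraries, among 16064 other genes that averaged at least 1 CPM, were Elmo1 with a Pearson r of 0.992, Sfn with 0.991 and Mcur1 with 0.988. Fibroblast markers, which include collagens secreted with Sparc, summed to 20.8 and 20.4 CPM in control, 32.0 and 29.7 CPM after Hira depletion, 16.6 and 20.9 CPM after Ubn1 depletion, and 29.5 and 24.5 CPM after Ubn2 depletion. The sum covers opposite directions. Thy1, its largest member, averaged 13.8 CPM in control, 20.1 CPM after Hira depletion and 8.84 CPM after Ubn2 depletion. The collagen gene Col3a1 averaged 0, 0.101 and 5.44 CPM in the same groups. Of the 10 fibroblast markers, 6 and 5 were at 0 counts in the control libraries, 4 in each Hira-depleted library and 1 in each Ubn2-depleted library. Their part in the Sparc values was not tested.

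The next comparisons set the depletions directly against each other, since a gene past the threshold in one depletion and not in another is not thereby shown to differ. Between Hira and Ubn2 depletion, 1 of 8 tested members was called higher after Hira depletion (Sox17) and 0 lower, with a background of 12.0% higher and 5.61% lower. Between Ubn2 and Ubn1 depletion, 2 of 7 were called higher after Ubn2 depletion (Gata4 and Gata6) and 0 lower, with a background of 4.61% higher and 4.09% lower. Between Hira and Ubn1 depletion, 2 of 8 were called higher after Hira depletion (Sox17 and Pdgfra) and 0 lower, with a background of 9.52% higher and 3.16% lower. The members with an unadjusted p under 0.05 numbered 2, 5 and 4 in these comparisons, and DESeq2 called 0, 1 and 1.

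Sox17 was 3.17-fold higher after Hira than after Ubn2 depletion, with a log2 difference of 1.66 (SE 0.440, edgeR adjusted p = 0.00868), and higher in both Hira-depleted libraries than in both Ubn2-depleted ones. It was 4.27-fold higher after Hira than after Ubn1 depletion, with a log2 difference of 2.09 (SE 0.490, edgeR adjusted p = 0.00239), where DESeq2 also passed the threshold with an adjusted p of 0.0260. Both Hira-depleted libraries lay above both Ubn2-depleted ones in 6484 of 18563 tested genes, and above both Ubn1-depleted ones in 6075 of 18819. The Sox17 difference from Ubn2 depletion missed the threshold in DESeq2 (adjusted p = 0.0624), without Hira-depleted library 1 (adjusted p = 0.0751) and without Ubn2-depleted library 2 (adjusted p = 0.0608). Sox17 failed the filter on low counts between Ubn2 and Ubn1 depletion, with 7 to 12 reads per library.

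Gata6 was 2.36-fold higher after Ubn2 than after Ubn1 depletion, with a log2 difference of 1.24 (SE 0.295, edgeR adjusted p = 0.00830; DESeq2 adjusted p = 0.0421). That call was lost without Ubn2-depleted library 1 (adjusted p = 0.0925). Gata4 was 1.73-fold higher in the same comparison, with a log2 difference of 0.79 (SE 0.255, edgeR adjusted p = 0.0423), and leaving out any of the 4 libraries ended the call, with adjusted p from 0.0527 to 0.198, as did DESeq2 at 0.190. Pdgfra was 1.81-fold higher after Hira than after Ubn1 depletion, with a log2 difference of 0.85 (SE 0.259, edgeR adjusted p = 0.0167). The adjusted p for Pdgfra was 0.0799 in DESeq2, 0.120 without Hira-depleted library 2 and 0.0541 without Ubn1-depleted library 2. Gata6 in that comparison had a log2 difference of 0.81 (adjusted p = 0.0672), which missed the threshold.

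Between Hira and Ubn2 depletion the log2 difference of Sparc was -0.005 with an SE of 0.071 (edgeR adjusted p = 0.964). It was 1.35-fold higher after Ubn2 than after Ubn1 depletion (log2 difference 0.44, SE 0.085, edgeR adjusted p = 0.00193) and also 1.35-fold higher after Hira than after Ubn1 depletion (log2 difference 0.43, SE 0.097, edgeR adjusted p = 0.00156). Cubn was lower after Hira than after Ubn2 depletion by a log2 difference of -0.87 (SE 0.350) that missed the threshold (adjusted p = 0.0665).

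**Figure D3:**
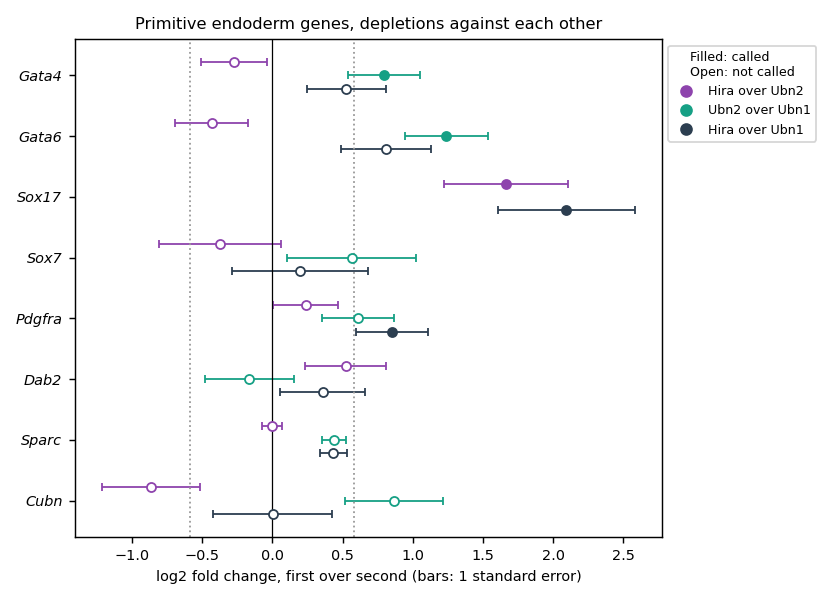
Fitted log2 fold change of each tested member between pairs of depletions (Hira over Ubn2, Ubn2 over Ubn1 and Hira over Ubn1), with bars of 1 standard error, filled points for called genes and dotted lines at a fold of 1.5. Sox17 lies farthest right at 2.09 for Hira over Ubn1 and 1.66 for Hira over Ubn2, while Gata6 reaches 1.24 for Ubn2 over Ubn1.

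Other genes of the pathway were read from 7 lists with 66 distinct genes. In these lists together edgeR called 12 of 56 tested genes higher and 3 lower after Hira depletion, 1 of 54 higher and 0 lower after Ubn1 depletion, and 4 of 54 higher and 6 lower after Ubn2 depletion. After Ubn1 depletion 20 of the 54 had an unadjusted p under 0.05 and DESeq2 called 1 higher and 0 lower. Over all tested genes the called share was 10.8% higher and 5.40% lower after Hira depletion, 1.53% and 1.56% in the Ubn1 comparison, and 9.59% and 8.75% in the Ubn2 comparison. The counts for Ubn1 and Ubn2 lie near those shares. DESeq2 called 8 higher and 3 lower for Hira and 2 higher and 5 lower for Ubn2. Median log2 fold changes over the lists were 0.113, 0.008 and -0.014.

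Among these lists, the most calls fell in that of parietal endoderm genes, with 5 of 7 tested members higher and 0 lower after Hira depletion, at a median log2 fold change of 0.92, where 6 had an unadjusted p under 0.05 and DESeq2 called 4 higher and 0 lower. The share of all tested genes called higher in that comparison was 10.8%. The 5 were the keratin genes Krt8 and Krt18, the filament gene Vim, the hormone receptor gene Pth1r and the activin inhibitor gene Fst. Plat and Snai1 were not called, at log2 fold changes of -0.06 and 0.74, and Thbd did not pass the filter on low counts. Krt18 was 13.9 and 12.3 CPM in control and 37.1 and 28.1 CPM after Hira depletion, with a log2 fold change of 1.31 (SE 0.137, edgeR adjusted p = 3.95e-07). Krt8 had a log2 fold change of 1.12 (SE 0.106) and Vim, the most abundant of the list, one of 0.88 (SE 0.081). Keratins and vimentin are made by many epithelial and mesenchymal cells as well as by parietal endoderm. After Ubn2 depletion the same keratins were lower, with log2 fold changes of -0.92 for Krt18 (edgeR adjusted p = 0.000635) and -0.59 for Krt8 (edgeR adjusted p = 0.000606), while Fst and Snai1 were higher. After Ubn1 depletion 0 of 7 were called, with 4 at an unadjusted p under 0.05 and 0 in DESeq2.

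Among other endoderm transcription factors, 1 of 6 tested genes was higher and 1 lower after Hira depletion, against 10.8% and 5.40% of all tested genes. Hnf4a, a nuclear receptor of visceral endoderm and liver, was 8.18 and 9.37 CPM in control and 3.75 and 3.37 CPM after Hira depletion, and fell by 1.31 on the log2 scale (SE 0.200, edgeR adjusted p = 3.42e-05). Foxa1 was called higher with a log2 fold change of 1.22 (SE 0.434, edgeR adjusted p = 0.0342), although its Hira-depleted libraries differed, at 2.24 and 0.996 CPM. DESeq2 called 0 genes of this list higher and 1 lower for Hira, and 0 in either direction for Ubn2, so the Foxa1 and Sox18 calls were not made by it. After Ubn2 depletion Sox18 was higher, with a log2 fold change of 1.26 (SE 0.355, edgeR adjusted p = 0.00737). After Ubn1 depletion 0 of 6 were called, 1 had an unadjusted p under 0.05 and DESeq2 called 0.

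Basement membrane genes, which code for the laminin and collagen IV network laid down by primitive endoderm, gave 1 call in 9 tested genes. This call was higher after Hira depletion and lies near the 10.8% of all tested genes called higher there. Serpinh1, a collagen chaperone, rose from 60.7 and 66.2 CPM to 180.2 and 148 CPM after Hira depletion, with a log2 fold change of 1.36 (SE 0.091, edgeR adjusted p = 1.32e-09). The nidogen gene Nid1 and the laminin gene Lamb1 stood at -0.42 and 0.36 on the log2 scale in Hira-depleted cells and at -0.43 and -0.44 in Ubn2-depleted cells, none past a fold of 1.5. After Ubn1 and after Ubn2 depletion edgeR and DESeq2 called 0 of 9, with 5 at an unadjusted p under 0.05 in each.

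Of the endocytic partners of cubilin and DAB2, the receptor gene Lrp2 was 37.3 and 46.9 CPM in control and 85.5 and 125 CPM after Hira depletion, a log2 fold change of 1.29 (SE 0.128, edgeR adjusted p = 2e-07). Amn was the other of 2 called higher among 8 tested, while Lrpap1 and Ap2a1 had log2 fold changes of -0.09 and -0.30 and were not called. DESeq2 called 1 of the partners higher after Hira depletion. After Ubn1 and after Ubn2 depletion edgeR and DESeq2 called 0 of 8 partners, with 2 and 6 at an unadjusted p under 0.05. Of the visceral endoderm genes, Apob and Bmp2 were called higher after Hira depletion among 8 tested, Lefty1 higher after Ubn1 depletion and Rbp4 lower after Ubn2 depletion among 6 tested each. DESeq2 called 1 gene of this list higher after Hira depletion. The share of all tested genes called was 10.8% higher for Hira, 1.53% higher for Ubn1 and 8.75% lower for Ubn2. Bmp2 had 1 and 4 reads in control and 16 and 15 after Hira depletion, so it passed the filter on low counts through the Hira-depleted libraries. Lefty1, a NODAL antagonist that ESCs also express, was 33.5 and 24.1 CPM in control and 45.6 and 50.8 CPM after Ubn1 depletion, with a log2 fold change of 0.75 (SE 0.124, edgeR adjusted p = 0.000144).

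Upstream, the PDGF genes moved in opposite directions. Pdgfc, a ligand of PDGFRA, was called higher after Hira depletion (log2 fold change 0.76, SE 0.163, edgeR adjusted p = 0.00104) and after Ubn2 depletion (1.13, SE 0.157, edgeR adjusted p = 8.44e-06), and Pdgfrb, the second receptor, was called lower, at -0.90 and -1.48. The ligand gene Pdgfa had log2 fold changes of 0.38, 0.35 and 0.06 in the Hira, Ubn1 and Ubn2 comparisons and was not called. After Ubn1 depletion, where Pdgfra fell, edgeR and DESeq2 called 0 of 4 PDGF genes, with 2 at an unadjusted p under 0.05. Of 14 FGF and ERK inputs, Fgf4 alone was called, lower after Hira depletion at -0.60 (SE 0.073, edgeR adjusted p = 2.89e-06) and after Ubn2 depletion at -0.62 (SE 0.068, edgeR adjusted p = 4.16e-07). Over all tested genes, 10.8% were called higher and 5.40% lower for Hira, and 9.59% and 8.75% for Ubn2. Fgf4 was 236 and 238 CPM in control, 160.3 and 156 CPM in Hira-depleted, 191 and 198 CPM in Ubn1-depleted and 158 and 151 CPM in Ubn2-depleted libraries. After Ubn1 depletion edgeR and DESeq2 called 0 of 14, with 4 at an unadjusted p under 0.05.

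**Figure D4:**
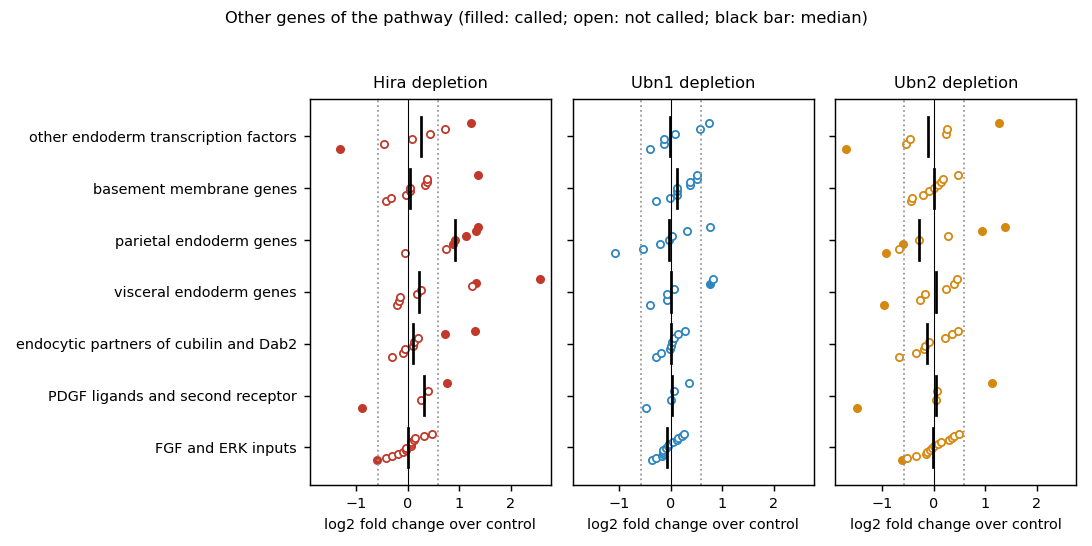
Log2 fold change over control of the tested genes of 7 pathway lists after Hira, Ubn1 and Ubn2 depletion (filled, called; open, not called; black bar, list median; dotted lines, a fold of 1.5). Parietal endoderm genes after Hira depletion have the median farthest from 0, at 0.92, and after Ubn1 depletion 1 of the 54 points is filled.

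Markers of other cell types were read because the members are also expressed outside the primitive endoderm. Of 10 epiblast and ESC markers, edgeR called Prdm14 higher in each depletion and Tdgf1 lower after Ubn2 depletion, where Klf4 at -0.58 and Klf2 at 0.56 on the log2 scale stayed under a fold of 1.5. The 10 markers summed to 5805 and 6106 CPM in control and 5445 and 5583 CPM after Hira depletion. They summed to 5799 and 5636 CPM after Ubn1 depletion and 5506 and 5619 CPM after Ubn2 depletion, and these sums cover opposite directions. Of primitive streak and definitive endoderm markers, Cxcr4 was higher after Hira depletion and T lower after Ubn2 depletion, among 5 and 3 tested, with T at 3 and 1 reads in the Ubn2-depleted libraries. DESeq2 called 0 streak markers in either comparison. Trophoblast markers gave Cdx2 higher after Hira depletion and Gata3 higher after Ubn2 depletion, each among 4 tested, where DESeq2 called 1 and 0. In control Cdx2 had 0 and 7 reads and Gata3 0 and 2, so each passed the filter on low counts through the depleted libraries where it was called. The called share of all tested genes was 10.8% higher and 5.40% lower for Hira, and 9.59% and 8.75% for Ubn2. After Ubn1 depletion edgeR and DESeq2 called 0 of 4 streak, 0 of 3 cardiac, 0 of 2 fibroblast, 0 of 4 endothelial and 0 of 3 trophoblast markers, with 1 endothelial marker and 0 of the rest at an unadjusted p under 0.05.

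The Ubn2-depleted libraries stood apart in differentiated tissue markers. Cardiac and muscle markers summed to 136 and 84.6 CPM there, against 14.8 and 13.0 CPM in control, 15.1 and 13.2 CPM after Hira depletion, and 9.21 and 12.8 CPM after Ubn1 depletion. Actc1, a heart actin, was 0.0974 and 0.189 CPM in control and 85.3 and 49.7 CPM after Ubn2 depletion. Tnnt2 was 0.39 and 0.22 CPM in control and 38.9 and 24.1 CPM after Ubn2 depletion. Actc1 and Tnnt2 held most of the cardiac sum there. Erythroid markers summed to 7.68 and 4.23 CPM after Ubn2 depletion and to at most 0.427 CPM in the other libraries, and 5 of 5 had counts in both Ubn2-depleted libraries. Endothelial markers summed to 134 and 129.5 CPM, near the 125 and 130.4 CPM of control, with Cdh5, Kdr and Tek called higher. After Ubn2 depletion edgeR called 3 of 7 tested cardiac markers higher and 1 lower (Myl7), 3 of 5 fibroblast markers higher and 1 lower (Thy1), and 2 of 2 erythroid markers higher. Of all genes tested there, 9.59% were called higher and 8.75% lower. In Hira-depleted libraries edgeR called 1 cardiac marker higher (Hand1) and 1 lower (Myl7), and 1 fibroblast marker higher (Col1a1). There DESeq2 called 0 cardiac markers higher and 1 lower, and 1 fibroblast marker higher. Of all genes tested for Hira, 10.8% were called higher and 5.40% lower. In the Hira and Ubn1 comparisons with control, 4 and 3 cardiac, 2 and 2 fibroblast and 0 and 0 erythroid markers passed the filter on low counts. The markers tested only for Ubn2 passed it through the Ubn2-depleted libraries, so a call lower was not open to them. For Ubn2, DESeq2 called 2 cardiac markers higher and 1 lower, 3 fibroblast markers higher and 1 lower, and 2 erythroid markers higher. GATA4, GATA6, PDGFRA, SPARC and SOX7 are also made in heart, mesenchyme or endothelium, so these markers stand beside every Ubn2 value of those members, and their part in them was not tested. Sparc was 179 and 182 CPM in the 2 Ubn2-depleted libraries while their cardiac sums were 136 and 84.6 CPM, and it was 179 CPM in both Hira-depleted libraries, where the cardiac sum was 15.1 and 13.2 CPM. Which cells the Sparc reads came from in either group was not tested, and equal levels can have different sources.

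**Figure D5:**
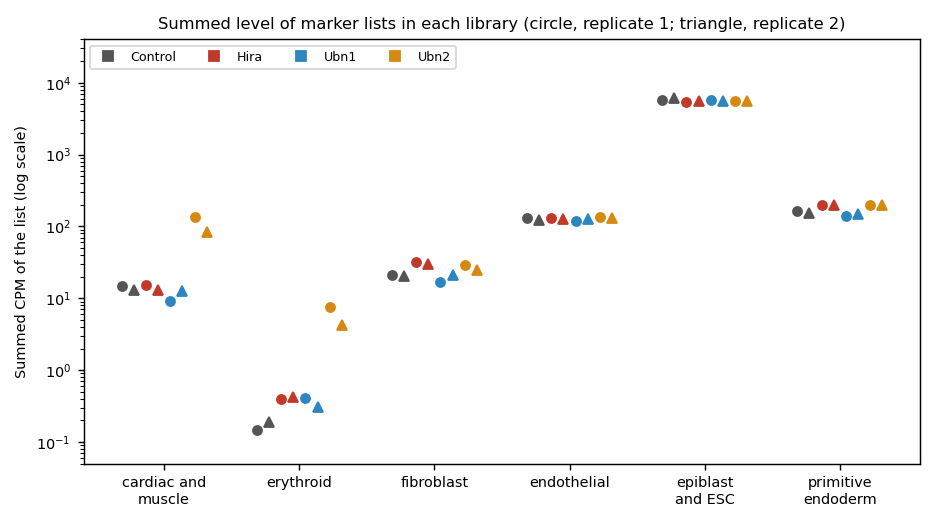
Summed CPM of 6 gene lists in each library on a log axis (circle, replicate 1; triangle, replicate 2; colour, group). Cardiac and erythroid sums are higher in the 2 Ubn2-depleted libraries than in the other 6. The primitive endoderm sum is 161.6 and 156.2 CPM in control and 195.8 and 196.6 CPM after Hira depletion. It is 139.7 and 148.8 CPM after Ubn1 depletion and 197.7 and 198.4 CPM after Ubn2 depletion. Sparc makes up 88.6% to 92.6% of this sum.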

How the data were processed

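RNA-seq was made from mouse E14 ESCs in 8 libraries, 2 per group. Reads were trimmed (Trim Galore), mapped on GRCm38 (STAR) and counted per gene (featureCounts) by the authors, per the labels and their methods. They deposited raw counts per gene in 3 tables, each holding 1 depletion beside the same control libraries. Versions, strand setting and the treatment of multiply mapped reads are not given in the sources used here.

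Groups came from the sample titles. Each comparison was fitted on its 4 libraries with edgeR 4.0.16 in R 4.3.3, using TMM factors, filterByExpr, the quasi-likelihood test and Benjamini-Hochberg adjustment over all genes tested. A call required an adjusted p under 0.05 and a fold above 1.5. CPM were computed on TMM-scaled totals of the 8 libraries. Lengths and positions came from GENCODE M21. DESeq2 1.42.0 served as an alternative, beside other filters, scalings, a replicate block and fits without each library. Totals of 19710040 to 32706053 counts leave a floor of 3 counts, between 0.0917 and 0.152 CPM. Intervals cover counting error only. An exact two-sided permutation test of 2 against 2 libraries has 0.333 as its smallest p, so none was used.

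The members and gene lists were chosen with earlier results of these data known. All 9 members are named. From each other list up to 3 genes with the smallest adjusted p in any comparison with control are given with values, and other called genes are named where few were called. The values of 1 other listed gene are not reported here. Pecam1, and the parietal endoderm genes not called after Hira depletion, were named after their values were seen. The genes most like Sparc, the member with the smallest adjusted p after Hira and after Ubn2 depletion, are the 3 with the highest Pearson correlation over the libraries.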

Additional observations from a re-analysis of the deposited data

Results flagged for a closer look

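Differences between depletions in their direct tests drew attention for 5 results. Sox17 was higher after Hira than after Ubn2 depletion by 1.66 on the log2 scale (SE 0.440, edgeR quasi-likelihood adjusted p = 0.00868) and higher than after Ubn1 depletion by 2.09 (SE 0.490, edgeR adjusted p = 0.00239), in 2 of 2 libraries each time. Such separation was common, at 6484 of 18563 tested genes for Hira above Ubn2 and 6075 of 18819 for Hira above Ubn1. Gata6 and Gata4 were higher after Ubn2 than after Ubn1 depletion by 1.24 (SE 0.295, edgeR adjusted p = 0.00830) and 0.79 (SE 0.255, edgeR adjusted p = 0.0423). Pdgfra was higher after Hira than after Ubn1 depletion by 0.85 (SE 0.259, edgeR adjusted p = 0.0167). Groups of 2 libraries are too small to judge single libraries as outliers.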

How the results depend on the processing

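Calls among the members were few and depended on the test. DESeq2 called 0 members higher after Hira depletion, 0 lower after Ubn1 depletion, 0 higher for Hira against Ubn2, 1 higher for Ubn2 against Ubn1 and 1 higher for Hira against Ubn1. Calls by adjusted p alone numbered 2 higher after Hira depletion and 1 higher after Ubn2 depletion, where Sparc was added. A minimum of 10 counts in every library gave 0 higher for Hira against Ubn2 and 1 for Hira against Ubn1, since Sox17 was then not tested. Without each library in turn, the members called ranged from 0 to 1 higher after Hira depletion, 0 to 1 lower after Ubn1 depletion, 0 to 1 higher for Hira against Ubn2, 0 to 1 higher for Ubn2 against Ubn1 and 1 to 2 higher for Hira against Ubn1. These fits leave 1 group with a lone library, which is assumed to vary like the other group.

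Some small log2 fold changes changed sign. Without 1 library, after Hira depletion Dab2 ranged from -0.328 to 0.042 and Pdgfra from -0.112 to 0.182. Sox7 ranged from -0.249 to 0.851 after Ubn1 depletion and from -0.363 to 0.852 for Hira against Ubn1. Gata6 ranged from -0.049 to 0.314 after Ubn2 depletion, and Dab2 from -0.378 to 0.093 for Ubn2 against Ubn1. Sparc for Hira against Ubn2 was 0.008 with the minimum of 10 counts and ranged from -0.024 to 0.007 without 1 library. Cubn for Hira against Ubn1 was -0.018 in DESeq2, -0.019 with its size factors, -0.008 without a filter, -0.005 with all 8 libraries in one fit, and -0.144 to 0.161 without 1 library. None of these passed the test in any fit, and the cause was not tested. Of the alternative values of single members, 474 kept their direction and their side of the threshold, 23 lost the call, 7 gained it and 17 changed sign.

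Replicate numbers shared between groups do not show that libraries were made together. The deviations of same-numbered libraries correlated between -0.131 and 0.114 over 16065 genes in the 6 pairs of groups. A replicate block left each count of called members as it was, with 1 higher after Hira depletion and 2 lower after Ubn1 depletion. The crossed pairing, added after seeing the data for the pairs with r under -0.1, called 1 member lower for Hira against Ubn2 (Cubn, adjusted p = 0.0431) and 1 more higher for Hira against Ubn1 (Gata6, adjusted p = 0.0369). Depth limits Foxa2, Sox17, Sox7 and Cubn most, with 0 to 55 counts per library.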
